A study of Mus musculus with 6 samples.

Results

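The Notch pathway was followed through 10 genes on 6 arrays of mouse embryonic stem (ES) cells: the receptors Notch1, Notch2, Notch3 and Notch4, the ligands Dll1, Jag1 and Jag2, the DNA-binding factor Rbpj, and the targets Hes1 and Hey1. They were found by taking each probe set of the deposited table whose platform symbol is one of these names. All 10 genes had a probe set of their own, 11 probe sets in all (Rbpj had 2), out of 35556 probe sets and 19938 genes with a single symbol. Another 6 probe sets carry the names Notch4 and Sympk together and were assigned to neither gene.

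The comparison set 3 samples of Scc1 lox/lox ERT2-Cre cells against 3 of Scc1 wt/wt ERT2-Cre cells. Scc1, now called Rad21, encodes the subunit that closes the ring of cohesin, a complex that holds sister chromatids and extrudes chromatin loops. Both genotypes carried ERT2-Cre, a recombinase activated by 4-hydroxytamoxifen (4-OHT), and both received 4-OHT for 24 h, at 80 nM in the sample labels and with a unit of mM in the series text. The promoter that drives ERT2-Cre and the number of lines or clones behind each genotype are not stated in those labels. All cells were female, of a mixed C57BL/129 background, derived and grown in 2i, a pair of kinase inhibitors, with LIF. Untreated cells were not analysed here, so a difference present before 4-OHT cannot be told apart from one that followed it. The series text calls the 3 samples of a genotype biological replicates.

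Notch receptors are membrane proteins activated by ligands of the Delta and Jagged families on a neighbouring cell. Ligand binding exposes the receptor to cleavage by an ADAM protease and then by gamma-secretase, and the freed intracellular part joins Rbpj in the nucleus and turns on Hes and Hey genes, which encode repressors. In ES cells the pathway is best known for its part in the exit towards neural fates, and Hes1 is known to oscillate in them. An expression array reads RNA only, so neither cleaved receptor nor surface ligand was measured.

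Promoter windows of 3 genes are shown because Notch3 and Jag1 were the members that passed the test and Rbpj was the member whose window held the Rbpj motif. The sequences are the 250 bases before a RefSeq transcript start in build GRCm38.p6, on the gene's own strand, 5′ to 3′. Capitals mark TGGGAA, the core bound by Rbpj, and CACGCG, an E-box variant bound by Hes and Hey proteins, each searched on both strands (TTCCCA and CGCGTG); no copies overlapped.
Notch3 (chr17:32166891-32167140, minus strand): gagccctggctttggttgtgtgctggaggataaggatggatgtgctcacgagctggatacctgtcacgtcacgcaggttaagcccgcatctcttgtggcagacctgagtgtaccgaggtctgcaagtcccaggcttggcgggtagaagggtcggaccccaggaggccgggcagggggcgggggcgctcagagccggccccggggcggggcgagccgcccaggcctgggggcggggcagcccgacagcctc
Jag1 (chr2:137116521-137116770, minus strand): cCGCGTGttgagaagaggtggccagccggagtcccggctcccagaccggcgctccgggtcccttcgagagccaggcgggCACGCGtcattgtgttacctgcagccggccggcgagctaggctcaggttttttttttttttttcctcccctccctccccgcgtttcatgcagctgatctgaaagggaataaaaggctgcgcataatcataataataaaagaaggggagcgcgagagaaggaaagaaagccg
Rbpj (chr5:53590096-53590345, plus strand): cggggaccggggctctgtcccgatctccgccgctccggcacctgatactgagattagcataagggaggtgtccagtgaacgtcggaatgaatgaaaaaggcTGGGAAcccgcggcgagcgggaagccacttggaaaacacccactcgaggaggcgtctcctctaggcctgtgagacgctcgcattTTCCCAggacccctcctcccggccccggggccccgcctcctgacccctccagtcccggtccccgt
RefSeq windows were matched for 8 of the 10 members, in 10 entries, and none was matched for Hes1 and Hey1. TGGGAA lay in 2 of the 10 entries, both of Rbpj and overlapping each other, against 21.6% of all 32851 windows in the table. CACGCG lay in 3 of the 10, those of Notch2 and Jag1 and 1 of Dll1, against 7.62% of all windows. The Notch3 window held neither motif. A match describes letters only and is not evidence of binding.

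Loss of the target was seen: Rad21 stood 15.2-fold below its wt/wt level (adjusted p = 1.57e-09 in limma). Array medians lay between 4.85 and 4.94 on the log2 scale, and no pair of arrays was a copy (correlations of 0.9892 to 0.9947). After centring within each genotype, wt/wt replicate 2 and lox/lox replicate 3 had negative loadings on the leading principal component (-0.621 and -0.482). The other 4 arrays spread from 0.121 to 0.5, the highest being wt/wt replicate 1. Centring makes the loadings of a genotype sum to 0, so each genotype must hold a negative one. The 2 arrays with negative loadings are those said below to stand apart. That name is a label only, as wt/wt replicate 1 (0.5) lay no nearer to 0 than lox/lox replicate 3 (-0.482). At an adjusted p under 0.05 in limma, 4 of 10 ES cell markers checked were lower in lox/lox cells (Sox2, Nanog, Esrrb and Fgf4), against 3.61% of all genes. Utf1 was the 1 that was higher, against 2.55%. Of the 10 log2 changes, 9 lay below 0, and the arrays of the genotypes did not overlap in 9 markers, against 22.8% of all genes. All 10 lay above the median of all values (4.90). Of all 19938 genes, 11371 had a wt/wt mean above that median and 11428 a lox/lox mean above it. Of markers of other cell types, above that median lay 4 of 9 fibroblast genes, 4 of 8 of primitive endoderm, 5 of 7 of trophectoderm, 1 of 8 of endothelium and 1 of 7 of neural progenitors. Their summed levels (log2) ran from 8.12 to 8.42 in wt/wt and 8.22 to 8.38 in lox/lox cells for fibroblasts, 7.68 to 8.08 and 7.79 to 7.98 for primitive endoderm, 8.95 to 9.04 and 8.61 to 8.66 for trophectoderm, 7.50 to 7.57 and 7.48 to 7.64 for endothelium, and 7.87 to 8.22 and 8.03 to 8.17 for neural progenitors, beside 14.61 to 14.69 and 14.36 to 14.49 for ES cells. Each sum adds linear signals, so it grows with the number of genes and cannot be set beside the median of single values. Among the 7 neural progenitor genes, Olig2 passed as lower, at 3.98 in lox/lox against 4.49 in wt/wt cells (adjusted p = 0.0142 in limma). Both levels lay below the median of all values. Pax6 was higher on all lox/lox arrays without passing (log2 change 0.25, adjusted p = 0.136 in limma). Of the 7 log2 changes, 5 lay above 0 and 2 below. In bulk RNA, fewer cells of a type and less RNA per cell cannot be told apart.

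Of the 10 members, Notch3 and Jag1 rose in lox/lox cells and the other 8 did not pass the test. Calls were made at an adjusted p under 0.05 in limma over all 19938 genes, of which 6.16% passed, 2.55% as higher and 3.61% as lower. The arrays of the genotypes did not overlap in 5 members, against 22.8% of all genes, and the same 5 had an unadjusted p under 0.05, against 18.0%. Of these 5, the receptor Notch3 and both Jagged ligands were higher on all lox/lox arrays (10.1% of all genes), and Rbpj and Hes1 were lower on all of them (12.7%). The median log2 change was 0.06 over the members and -0.008 over all genes, and the median size without sign was 0.20 and 0.09. Each member lay above 4.90 in both genotypes, Hey1 and Dll1 only just.

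**Figure D1:**
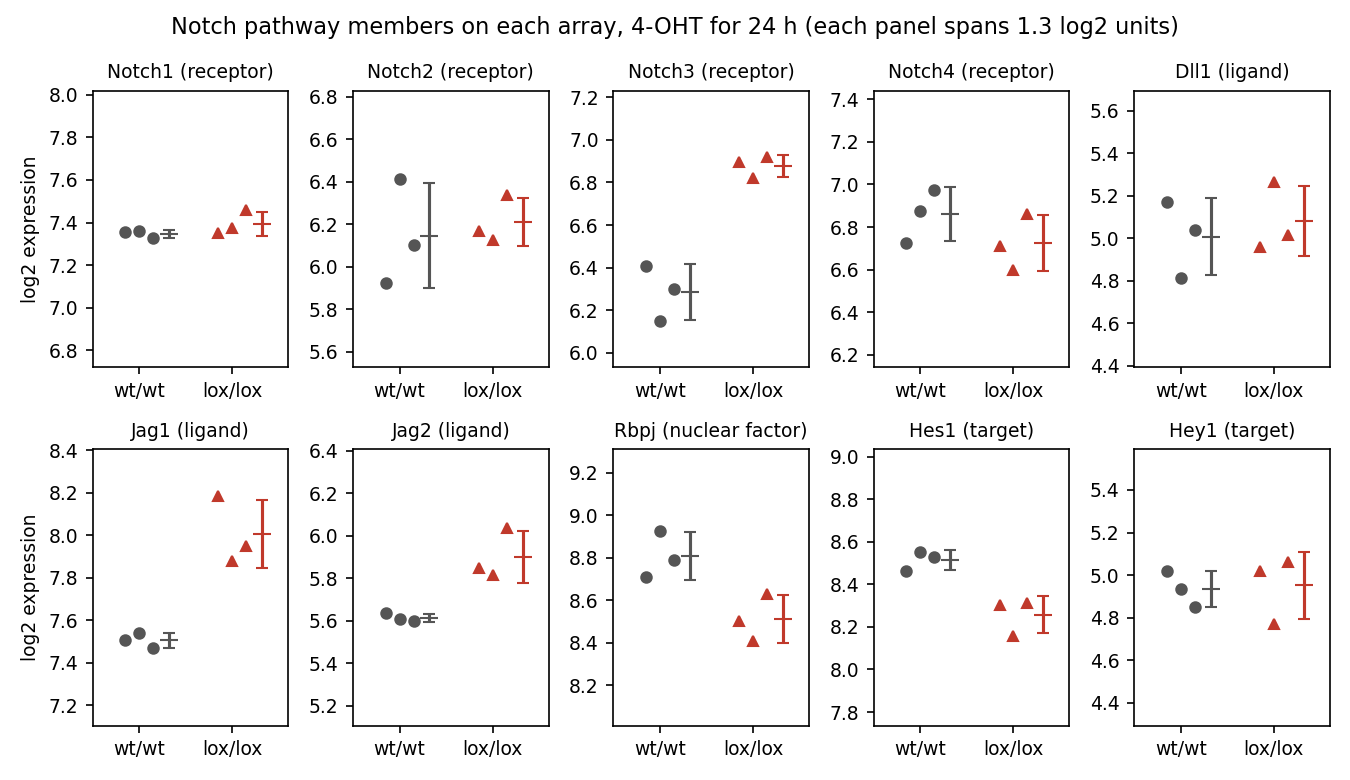
Log2 expression (vertical axis) of each of the 10 genes on each array, with 3 wt/wt arrays as circles, 3 lox/lox arrays as triangles, and the mean ± SD beside them. Each panel spans the same range, and the groups are apart for Notch3, Jag1, Jag2, Rbpj and Hes1 and overlap for the other genes.

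Among the receptors, 1 of 4 passed. Notch3 read 6.41, 6.15 and 6.30 on the wt/wt arrays and 6.90, 6.82 and 6.92 on the lox/lox arrays (log2 expression, replicates 1 to 3). Every lox/lox array was above every wt/wt array, and the wt/wt arrays spread more than the lox/lox ones. The mean rose from 6.29 ± 0.13 to 6.88 ± 0.05 (SD, n = 3), a 1.51-fold higher level with a log2 change of 0.59 (SE 0.09, 95% interval 0.40 to 0.79, adjusted p = 0.0029 in limma). Notch3 is known chiefly as the receptor of vascular mural cells. Of 8 endothelial markers, 4 had log2 changes above 0 and 4 below. The cadherin gene Cdh5 was the 1 that passed, as higher, at 4.43 against 4.09 and below the array median in both genotypes, while the VEGF receptor gene Kdr had a log2 change of -0.31 (adjusted p = 0.183). Pdgfrb, a marker of mural cells and fibroblasts, had a log2 change of -0.14 (adjusted p = 0.543). Their part in the Notch3 result was not tested.

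The other 3 receptors did not pass. Notch1, the receptor most used in early development, read 7.36, 7.36 and 7.33 in wt/wt and 7.35, 7.37 and 7.46 in lox/lox cells. The groups overlapped, with a log2 change of 0.05 and a 95% interval of -0.12 to 0.21, which bounds any change in Notch1 more tightly than in the other receptors. Notch2, a close paralogue of Notch1, ran from 5.93 to 6.41 in wt/wt and from 6.12 to 6.34 in lox/lox cells. Its wt/wt arrays spanned the whole lox/lox range (log2 change 0.06, 95% interval -0.21 to 0.33). Notch4, a receptor best known from endothelium, read 6.73, 6.88 and 6.98 in wt/wt and 6.71, 6.60 and 6.86 in lox/lox cells, and the groups overlapped (log2 change -0.14, 95% interval -0.35 to 0.08, adjusted p = 0.547).

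Of the ligands, 1 of 3 passed, and all 3 log2 changes were above 0. Jag1, a Jagged ligand expressed in many epithelial and vascular tissues, read 7.51, 7.54 and 7.47 on the wt/wt arrays and 8.19, 7.88 and 7.95 on the lox/lox arrays. The wt/wt arrays lay close together, all below the lox/lox arrays, of which replicate 1 was the highest. The mean went from 7.51 ± 0.04 to 8.00 ± 0.16 (SD, n = 3), a 1.41-fold higher level (log2 change 0.50, SE 0.09, 95% interval 0.29 to 0.70, adjusted p = 0.0101 in limma). The Jag1 call was lost without wt/wt replicate 3 (adjusted p = 0.0517), and when all 35556 probe sets were tested (0.0526), in a range of 0.00267 to 0.0526 over 15 alternatives. It was also lost without both arrays that stood apart (adjusted p = 0.0545, log2 change 0.54), whereas Notch3 kept its call there (adjusted p = 0.0283) and in all 15 others.

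Jag2, the second Jagged ligand, read 5.64, 5.61 and 5.60 in wt/wt and 5.85, 5.82 and 6.04 in lox/lox cells. The groups did not overlap, but the log2 change of 0.29 (SE 0.08, 95% interval 0.10 to 0.47) did not pass (adjusted p = 0.0792 in limma); it passed only when dim genes were left out (adjusted p = 0.0469; 0.0469 to 0.219 over 15 alternatives). Dll1, a Delta ligand known from somites and neural progenitors, read 5.17, 4.81 and 5.04 in wt/wt and 4.96, 5.27 and 5.02 in lox/lox cells. These overlapped and lay near the array median (log2 change 0.07, 95% interval -0.18 to 0.32). Whether background flattens differences at that level was not tested.

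Rbpj, through which the cleaved receptors act, and the target Hes1 both lay lower on all lox/lox arrays without passing. Rbpj read 8.71, 8.93 and 8.79 in wt/wt and 8.50, 8.41 and 8.63 in lox/lox cells, and the groups came close but did not overlap. The log2 change was -0.30 (SE 0.09, 95% interval -0.50 to -0.09, adjusted p = 0.0955 in limma). The second Rbpj probe set, which rests on 1 transcript record, had a log2 change of -0.15 and overlapping arrays. Hes1 read 8.46, 8.55 and 8.53 in wt/wt and 8.30, 8.16 and 8.31 in lox/lox cells. All lox/lox arrays were below all wt/wt arrays, with a log2 change of -0.26 (SE 0.08, 95% interval -0.43 to -0.08, adjusted p = 0.0941 in limma). Both genes passed as lower under trended, robust variances (adjusted p = 0.0368 for Rbpj and 0.0423 for Hes1) and under array weights (0.0394 and 0.0465). Their adjusted p ran up to 0.32 and 0.318 over 15 alternatives. Hey1, a repressor known as a Notch target in vessels and heart, read 5.02, 4.93 and 4.85 against 5.02, 4.77 and 5.06, with overlap and a log2 change of 0.02 (95% interval -0.19 to 0.23), whose sign turned with quantile normalization and median centring.

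**Figure D2:**
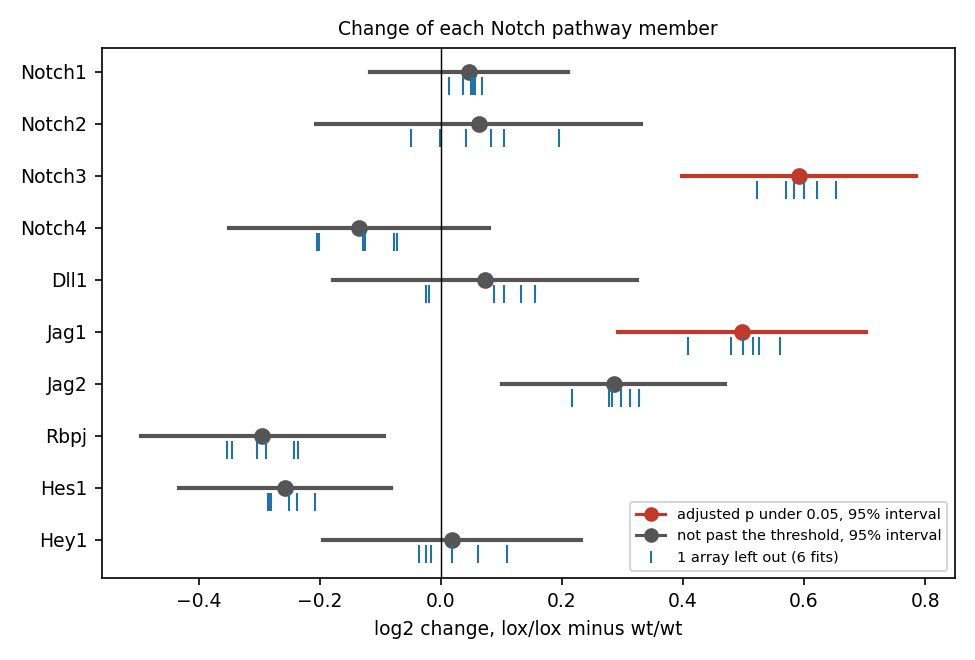
Log2 change (lox/lox minus wt/wt, horizontal axis) of each member as a point with its 95% interval, red where the adjusted p was under 0.05, and the 6 values with 1 array left out as ticks. The intervals of Notch3, Jag1 and Jag2 lie above 0, those of Rbpj and Hes1 below 0, and those of the other 5 genes include 0.

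The genes whose profiles over the 6 arrays lay nearest to the called members were found as those with the smallest root mean square difference after each gene was centred on its mean. For Notch3 they were Armcx3, an armadillo-repeat gene, at a difference of 0.03 log2 units, Frem2, an extracellular matrix gene, at 0.04, and Lgals8, a galectin gene, at 0.05. Their log2 changes were 0.60, 0.63 and 0.51. For Jag1 they were Fzd10, a Wnt receptor gene, at a difference of 0.05, Zfp428, a zinc finger gene, at 0.06, and Foxp4, a forkhead factor gene, at 0.07. Their log2 changes were 0.51, 0.55 and 0.41, and Foxp4 did not pass (adjusted p = 0.0553). Log2 changes near those of Notch3 and Jag1 follow from how these neighbours were chosen. Foxp4 passed in 6 of 15 alternatives (adjusted p from 0.0319 to 0.2). Fzd10 lost its call with all probe sets tested (adjusted p = 0.0717; from 0.00472 over 15 alternatives), without wt/wt replicate 3 (0.0545) and without both arrays that stood apart (0.0506).

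Of 58 further Notch pathway genes listed, 55 were measured, of which 1 rose and 2 fell. Their median log2 change was -0.004 and their median size without sign 0.09, against 0.09 over all genes. At 3 of 55, the called share is near the 6.16% of all genes, and the arrays of the genotypes did not overlap in 8, a smaller share than the 22.8% of all genes.

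The largest change among them was that of Dtx3, which encodes a Deltex family ubiquitin ligase. Dtx3 read 5.57, 5.52 and 5.64 in wt/wt and 6.41, 6.21 and 6.29 in lox/lox cells. The groups lay well apart, with a log2 change of 0.73 (1.66-fold; SE 0.08, adjusted p = 0.000685 in limma). The other Deltex genes, Dtx1 at 0.09, Dtx2 at -0.06 and Dtx4 at 0.07 on the log2 change scale, did not pass and are named outside the rule, with their values known. Among 9 measured genes of receptor turnover Dtx3 was the 1 that passed; Numb, which opposes Notch in asymmetric division, had a log2 change of -0.13 and Fbxw7, which marks the intracellular part for decay, one of -0.004.

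Of 9 measured genes for proteases and gamma-secretase subunits that process the receptor, Adam10 passed. Adam10, the ADAM protease that cuts ligand-bound Notch, read 7.56, 7.77 and 7.62 in wt/wt and 7.01, 6.95 and 7.28 in lox/lox cells. Every lox/lox array was lower, by a mean log2 change of -0.57 (SE 0.10, adjusted p = 0.0087 in limma). The Adam10 call was lost without lox/lox replicate 2 (adjusted p = 0.0507) and when all probe sets were tested (0.0543), in a range of 0.00211 to 0.0543 over 15 alternatives. Chosen with their values known, Furin, which cuts the precursor, and the gamma-secretase genes Ncstn and Aph1c had log2 changes of -0.25, -0.28 and -0.33, each with non-overlapping arrays and adjusted p of 0.108, 0.101 and 0.088. Ncstn passed under array weights and Aph1c without lox/lox replicate 1. Of the 9 genes of this list 2 had log2 changes above 0, the highest at 0.24, and the gamma-secretase genes Aph1a and Psenen stood at 0.10 and -0.02. Aph1b and Aph1c are near-identical copies whose probes may share signal. Adam17, the related sheddase, had a log2 change of -0.07 and overlapping arrays.

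Of 9 measured corepressor genes, Tle4 passed. Tle4, a Groucho protein of the kind that Hes repressors recruit, read 7.69, 7.84 and 7.89 in wt/wt and 7.25, 7.36 and 7.36 in lox/lox cells. The groups did not overlap and the level was 1.40-fold lower (log2 change -0.49, SE 0.08, adjusted p = 0.00651 in limma). Its paralogues Tle1, Tle2 and Tle3, also named with their values known, did not pass, at log2 changes of 0.15, 0.08 and 0.18.

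In the remaining groups no gene passed in limma. Among 4 other ligand genes the smallest p was that of Dlk2 (log2 change -0.12), with 0 at an unadjusted p under 0.05. Among 5 glycosylation genes it was that of Rfng, a Fringe sugar transferase (log2 change 0.24, adjusted p = 0.266), with 1 such gene. Rfng passed without lox/lox replicate 3, at an adjusted p of 0.0369 (0.0369 to 0.579 over 15 alternatives) and a log2 change of 0.36. Among 4 ligand ubiquitin ligases it was that of Mib1 (log2 change -0.20, adjusted p = 0.274), with 1 such gene. Among 7 coactivator genes it was that of Maml3 (-0.17), with 0, and among the other Hes and Hey genes and Nrarp, 8 in all, that of Hes3 (0.12), with 0. These 8 genes had log2 changes of -0.09 to 0.12. Among 5 proneural genes, which Hes repressors are known to hold down, none passed either, 1 had an unadjusted p under 0.05, and the log2 changes ran from -0.06 to 0.22; the highest was that of Neurod1 (adjusted p = 0.234), at 3.53 and 3.75, below the array median.

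**Figure D3:**
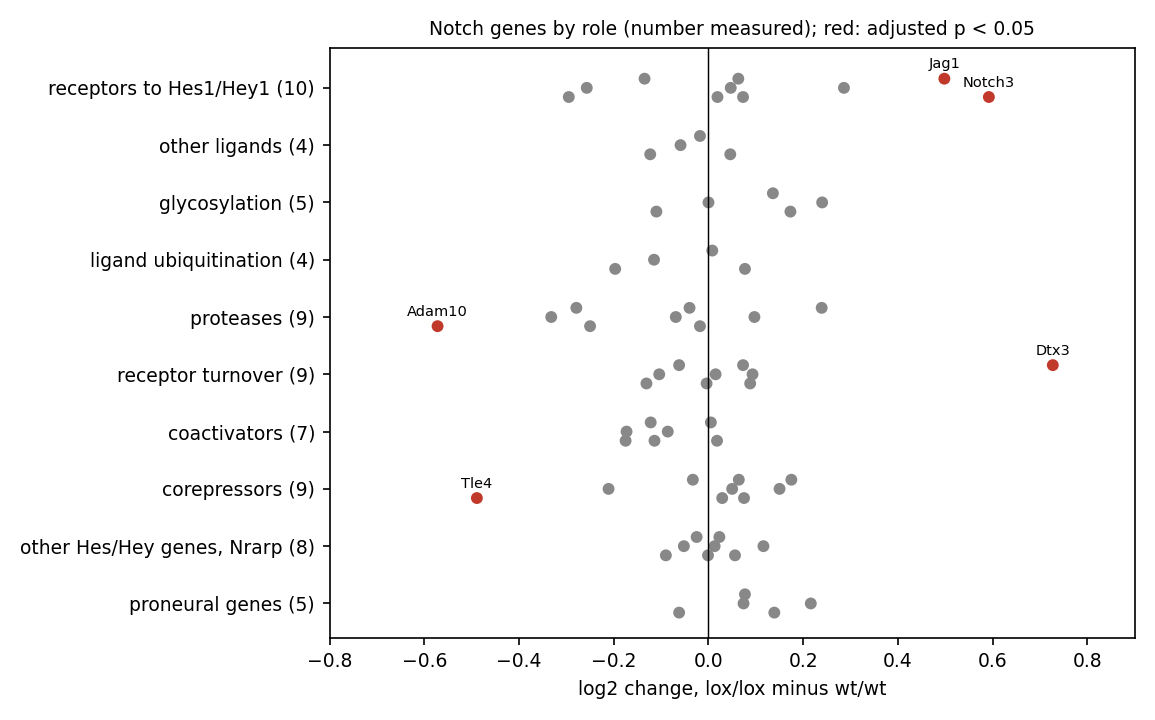
Log2 change (lox/lox minus wt/wt, horizontal axis) of every measured gene of the Notch lists, 1 row per role with the number measured, red and named where the adjusted p was under 0.05. The 5 red points are Notch3, Jag1 and Dtx3 above 0 and Adam10 and Tle4 below 0.

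**Figure D4:**
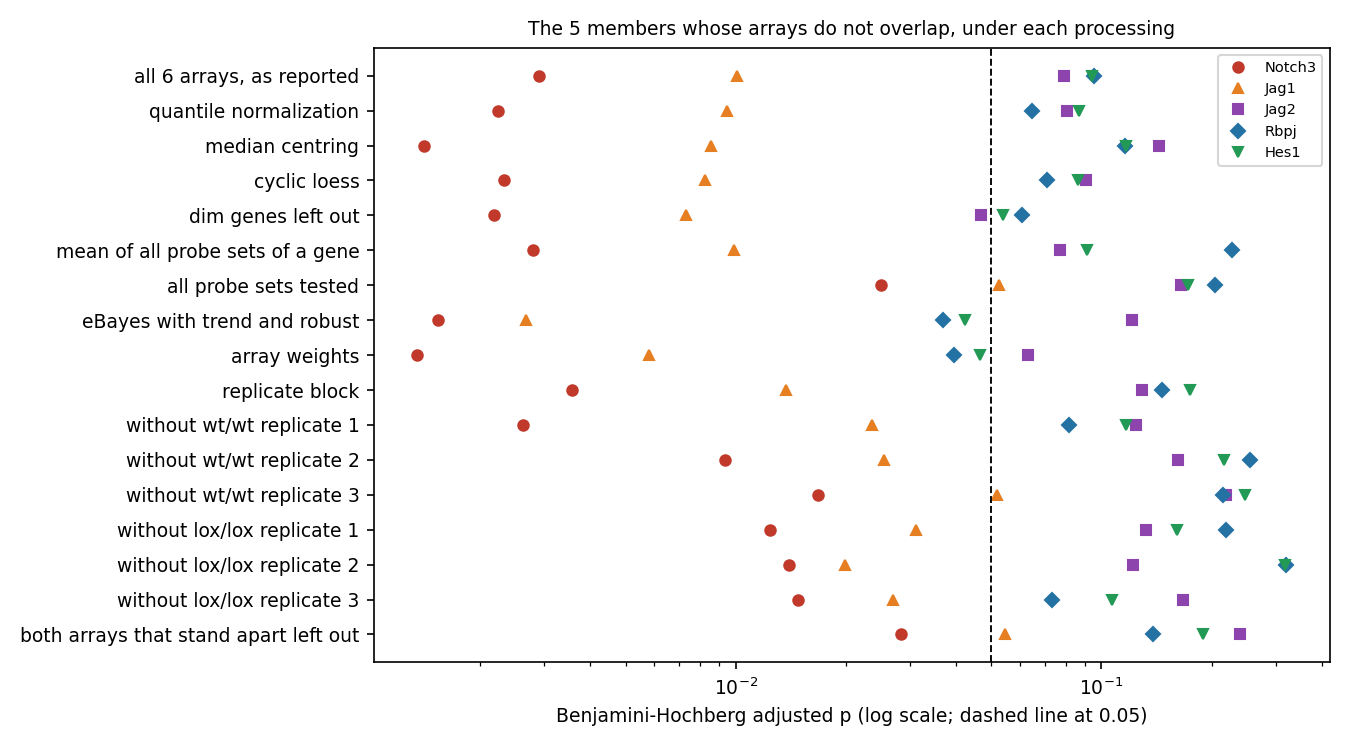
Adjusted p (horizontal log axis, dashed line at 0.05) of the 5 members whose arrays did not overlap, 1 row per way of processing. Notch3 lies left of the line in every row, Jag1 in all but 3, and Jag2, Rbpj and Hes1 right of it in most rows.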

How the data were processed

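RNA was hybridised to 6 Affymetrix Mouse Gene 1.0 ST arrays. Per the submitters' processing notes, the authors used RMA and affy to make the deposited log2 values; the genome build is not given in the sources. RMA assumes alike total distributions, so a change in total RNA per cell cannot be seen. The platform annotation paired 21789 probe sets with 1 symbol and 1621 with several, and left 12146 unnamed. Each gene was represented by its probe set with the highest mean.

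The fit used lmFit and eBayes of limma 3.58.1 under R 4.3.3 (difference lox/lox minus wt/wt; 4 residual and 6.14 prior degrees of freedom; Benjamini-Hochberg over 19938 genes). The code was tested on simulated data. Number of arrays limits the precision. Members and lists were chosen with earlier results of these data known. The rule named all members, Rad21, the genes past the threshold in each further list or else the 1 with the smallest p, and the 3 nearest profiles of each called member. Some listed genes are not reported here. Promoters came from RefSeq (GRCm38.p6). Alternatives were quantile, median and cyclic loess scaling, a filter on dim genes (mean at or below 4.90), mean of probe sets, all probe sets, trended and robust variances, array weights, the replicate block, each array left out, an adjusted p under 0.01 and, chosen after seeing the data, leaving out the pair of arrays that stood apart.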

Additional observations from a re-analysis of the deposited data

How the results depend on the processing

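Notch3 was called under all alternatives run. The number of called members was 2 with all arrays and 1 to 2 with 1 array left out. It was 1 with all probe sets tested, at an adjusted p under 0.01, or without both arrays that stood apart, and 4 under trended, robust variances or array weights, which added Rbpj and Hes1 while the calls over all genes rose to 1523 and 1717. Over all genes 1228 were called, 626 (without lox/lox replicate 2) to 1132 with 1 array left out, 808 with all probe sets tested, 697 without both arrays that stood apart, and 553 at an adjusted p under 0.01. Called further pathway genes numbered 2 to 4 and proneural genes 0 throughout. No shared effect of the replicate number was seen: deviations of same-numbered arrays correlated at 0.06, -0.12 and -0.05. Of 6 arrays, 1 correlated best with its own number. These values do not settle whether the samples were paired. With the replicate block 1086 genes and the same 2 members were called. Signs near 0 turned: Hey1 had log2 changes of -0.0016 with quantile normalization, -0.00012 with median centring, -0.036 without both arrays that stood apart, and -0.037 to 0.11 with 1 array left out, where Notch2 ran from -0.049 to 0.20 and Dll1 from -0.024 to 0.16. Other scalings moved the median of all genes to between -0.03 and -0.003. Of the named genes, Maml3 and Neurod1 gave no value under the filter.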

Other observations

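The 6 probe sets that carry both Notch4 and Sympk, a pre-mRNA processing gene, lay below the array median and had log2 changes between -0.12 and -0.06 in the fit over all probe sets, with unadjusted p of 0.177 or more in limma; 2 of them held identical values on every array.

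Trophectoderm genes, a lineage in which Notch is known to act on Cdx2, were read as markers of another cell type. Of 7 measured, 2 passed as lower, against 3.61% of all genes, and 5 did not pass. Of the 7 log2 changes, 3 lay above 0 and 4 below. Tfap2c, a factor that ES cells also express, read 8.06, 7.94 and 7.87 in wt/wt and 6.67, 7.15 and 7.43 in lox/lox cells, a log2 change of -0.87 (adjusted p = 0.00991 in limma). Gata3, a trophectoderm factor, was 1.54-fold lower (adjusted p = 0.017 in limma). Hand1 and Krt7 had log2 changes of 0.10 and 0.08. The summed level of this list takes in the fall of Tfap2c. Cdx2 read 6.97 on lox/lox replicate 1 and 6.14 to 6.33 on the other 5 arrays, and did not pass (log2 change 0.18, adjusted p = 0.689).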
